A study of Mus musculus with 13 samples.

Results

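The heat shock chaperones described here are 10 genes, taken by symbol from a fixed list, out of 16382 genes in the deposited tables. They are Hsph1, Hspa4 and Hspa8 of the HSP110 and HSP70 families, Hsp90aa1 and Hsp90ab1, the J-domain genes Dnaja1 and Dnajb1, the mitochondrial chaperonin genes Hspd1 and Hspe1, and the small heat shock protein gene Hspb1. All 10 were measured and all 10 passed the filter on low counts. They were measured in myotubes of C2C12, 1 mouse myoblast line whose cells fuse into multinucleated fibres. Myotubes at day 8 of differentiation were treated for 24 h with palmitoylethanolamide (PEA, 10 μM), a fatty acid amide, or with DMSO alone as the vehicle control (CON). Each treatment had 6 poly(A) RNA-seq libraries. The methods give 3 repeats with wells in duplicate, and which libraries belong to 1 repeat could not be read from the labels. The 6 libraries were therefore compared as replicates, and the p-values measure the spread between them, part of which may be technical.

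Heat shock chaperones bind proteins that are not yet, or no longer, folded. In the cytosol, J-domain proteins deliver a substrate to HSP70 and stimulate its ATPase, HSP110 proteins release the ADP so that the cycle can restart, and HSP90 acts later on kinases, steroid receptors and, in muscle, myosin. In mitochondria, imported proteins fold inside the HSP60 barrel under its HSP10 lid, while small heat shock proteins hold unfolding proteins without using ATP. Many of these genes are targets of heat shock factor 1, which binds arrays of the 5-base unit nGAAn in alternating orientation.

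To show what that unit looks like in these genes, RefSeq start windows (250 bases before to 50 bases after a start, from a GRCm38.p6 table, placed in GRCm39 by exact match) were searched for 2 units facing each other, as GAANNTTC or TTCNNGAA. Each of these motifs reads the same on both strands, and they can overlap by sharing a unit. Windows were found for 7 of the 10 genes, and Hspa8, Hsp90aa1 and Hsp90ab1 had none in the table. A motif was present in a window of 5 genes (Hsph1, Dnaja1, Hspd1, Hspe1 and Hspb1) and in no window of Hspa4 or Dnajb1. Over the whole table, 17.0% of 26742 genes had either motif in a window, and of its 32544 windows 15.1% held either (GAANNTTC in 7.89%, TTCNNGAA in 8.55%). The 7 genes had 12 windows, and a gene with more windows has more room for a match. The stretches that carry them upstream of the starts are printed 5′ to 3′ on the strand given with each, with the GAA and TTC units in capitals.
Hspe1 and Hspd1, chr1:55127212-55127241, plus strand (GRCm39): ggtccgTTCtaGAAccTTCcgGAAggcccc
Hspb1, chr5:135916655-135916684, plus strand: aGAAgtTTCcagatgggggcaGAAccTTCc
Hsph1, chr5:149559816-149559845, minus strand: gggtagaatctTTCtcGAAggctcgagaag
Dnaja1, chr4:40722333-40722362, plus strand: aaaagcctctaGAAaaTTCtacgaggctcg
The first stretch has 4 units in a row, which form 3 overlapping motifs, and it lies between the Hspe1 start and one of the RefSeq starts of Hspd1, which are 216 bases apart and point away from each other. Hspd1 has another RefSeq start beyond that of Hspe1, and for that start the stretch is downstream and outside its window. It starts 95 bases before the start of Hspe1. The other stretches start 118 bases before the start of Hspb1, and 44 and 135 bases before one of the RefSeq starts of Hsph1 and of Dnaja1. Hsph1 and Dnaja1 have other RefSeq starts further downstream, to which the distance is longer, and Hsph1 also has motifs after its starts. The annotation places exons of some transcripts of Hspd1, Hsph1, Dnaja1 and Gm6297 over these stretches and none over that of Hspb1. These matches describe letters in a window, and binding of a factor was not measured.

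The libraries held 12354845 to 50397444 estimated counts, with medians of 18417442 in CON and 18420606 in PEA. The first principal component held 30.1% of the variance, and on it the CON 2 library, with a score of 9.58, lay above the lowest PEA library (5.61). All 8 myotube markers were measured. Genes of dividing cells moved with the treatment, with 5 of 5 markers called higher in PEA and summed levels of 2046 to 5217 normalized counts in CON and 5178 to 6221 in PEA. Fibroblast markers summed to 12007 to 21354 in CON and 19203 to 21671 in PEA (2 of 4 tested were called higher, and Thy1 was at 0 in some libraries). Myotube markers summed to 79266 to 125033 in CON and 80378 to 96422 in PEA (all 8 fitted below 0 with a median log2 fold change of -0.21, 5 at an unadjusted p below 0.05 and 2 called lower), and myoblast markers to 6706 to 9189 in CON and 6280 to 7583 in PEA (1 of 4 called lower). Macrophage markers stayed between 64.6 and 139.5 in all libraries, with Ptprc and Csf1r at 0 in some. The part of these shifts in any result below was not tested, and in bulk RNA fewer cells of a type and less RNA per cell cannot be told apart. As the culture was of 1 myoblast line, fibroblast and macrophage markers are given as levels of genes and not as numbers of such cells.

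The 10 chaperone genes differed little between CON and PEA. None of the 10 was called by edgeR (quasi-likelihood test, Benjamini-Hochberg adjusted p below 0.05), where 11% of the 13142 genes tested were called. At an unadjusted p below 0.05 there was 1 gene, Hsph1, against 27.4% of all genes. DESeq2 called the same gene (adjusted p = 0.0448), against 14.5% of all genes, and limma-voom called 0 of 10. Counts over 10 genes are too small to be set apart from these shares. Fitted log2 fold changes (PEA over CON) were above 0 for 5 genes and below 0 for 5, with a median of 0.00 and a median size of 0.06, beside a median of 0.01 and a median size of 0.11 over all genes tested. The 95% intervals, which are not adjusted for the number of genes, bounded each gene's difference between -16.8% (the lower bound of Dnaja1) and 19.2% (the upper bound of Hsph1).

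**Figure D1:**
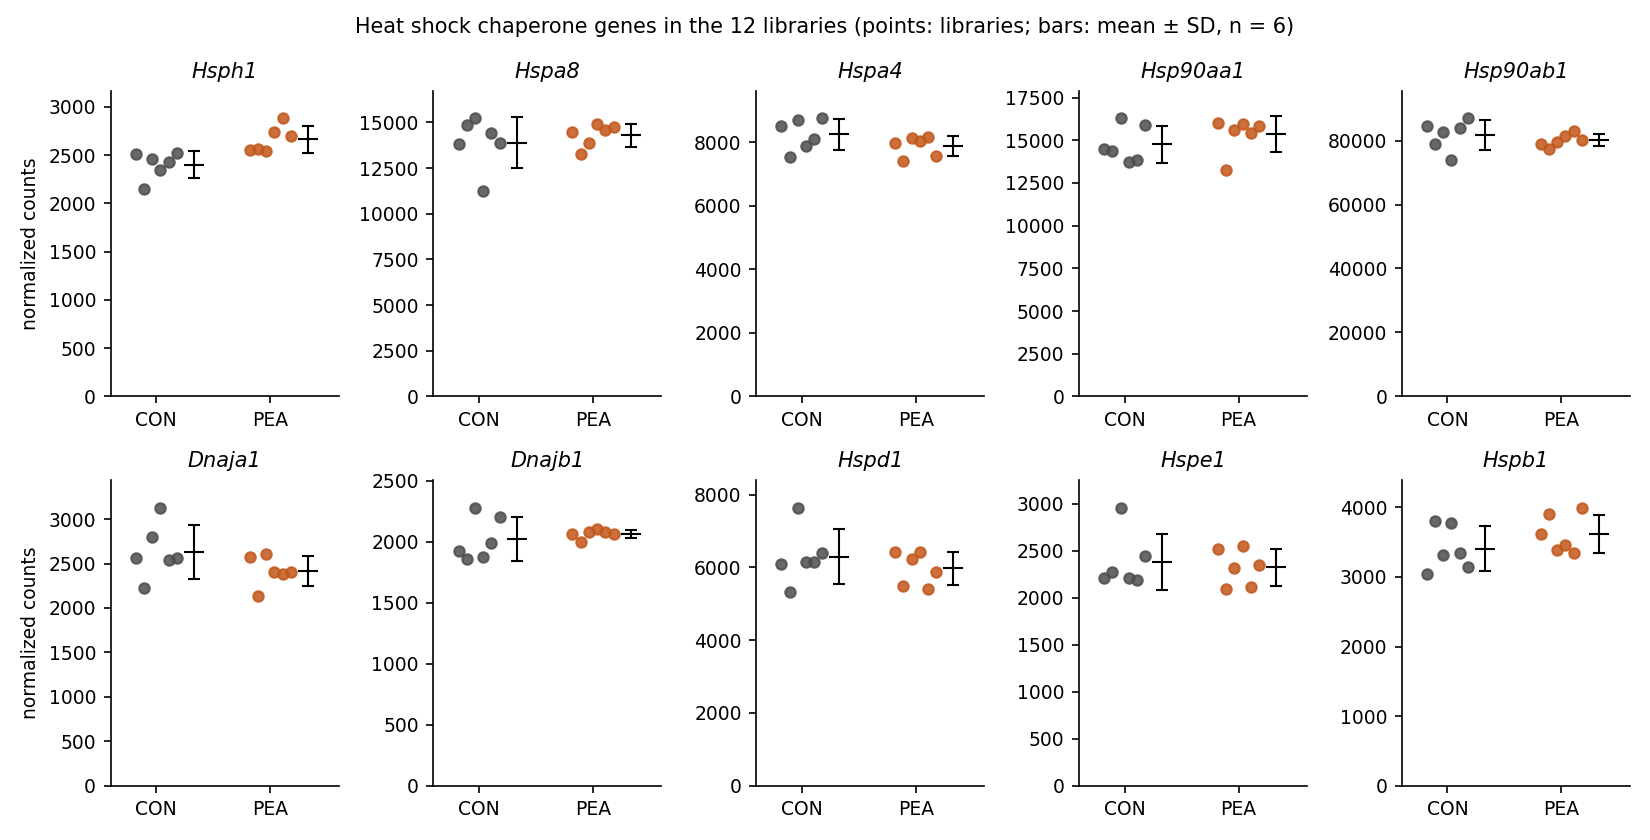
Normalized counts (linear axis from 0) of the 10 chaperone genes in each of the 6 CON and 6 PEA libraries, with points for libraries and bars for mean ± SD. The PEA libraries lie above all CON libraries for Hsph1, between 2538 and 2882 against a CON maximum of 2521, and the groups overlap in the other panels.

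Hsph1 (ENSMUSG00000029657, chr5:149537636-149560156, minus strand) encodes HSP110, a nucleotide exchange factor for cytosolic HSP70. Its lowest, median and highest normalized counts were 2151, 2447 and 2521 in CON, and 2538, 2635 and 2882 in PEA. Every PEA library was above every CON library. The groups did not overlap, in either direction, for 4.34% of all genes tested and for no other gene of the 10. The means were 2403 ± 139 and 2663 ± 136 (SD, n = 6 each), a log2 fold change of 0.15 ± 0.05 (SE) and a 95% interval of 3.32% to 19.2% higher. The edgeR adjusted p was 0.0563, and it lay between 0.0542 and 0.134 with any 1 library left out.

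Hspa4 (ENSMUSG00000020361, chr11:53150641-53191531, minus strand) encodes APG-2, another exchange factor of the HSP110 family. It ranged from 7539 over a median of 8296 to 8749 in CON and from 7416 over 8005 to 8156 in PEA, so that the groups overlapped. The means were 8243 ± 486 and 7881 ± 314, a log2 fold change of -0.06 ± 0.05 (edgeR adjusted p = 0.416) with an interval from -10.6% to 2.51%.

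Set against each other within each library, the 2 exchange factors separated the groups, as Hsph1 alone did. The ratio of Hsph1 to Hspa4 counts was 0.283 to 0.300 in the CON libraries (mean 0.292 ± 0.0069) and 0.312 to 0.357 in the PEA libraries (0.338 ± 0.0183). All 6 PEA ratios lay above the highest CON ratio, and the geometric mean was 15.9% higher, a log2 difference of 0.21. The two-sided exact permutation test gave p = 0.00216, the smallest that the 924 assignments of 12 libraries allow, or 0.0108 after Benjamini-Hochberg adjustment over the 5 ratios tested, and 0.0108 to 0.0216 with any library left out. Compared by the difference of group medians the adjusted exact p was 0.0649. On log2 normalized counts the same exact permutation test gave an unadjusted p of 0.00216 for Hsph1 alone and 0.177 for Hspa4 alone. The ratio is therefore not shown to separate the groups beyond what Hsph1 does. Neither transcript shares a run of 50 bases with another place in GRCm39.

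Hspa8 (ENSMUSG00000015656, chr9:40711630-40731039, plus strand) encodes HSC70, the constitutive cytosolic HSP70. CON libraries ranged from 11243 over a median of 14137 to 15227, and PEA libraries from 13254 over 14536 to 14905. The lowest value, CON 4, stood apart from the other CON libraries, and all PEA values lay inside the CON range. The means were 13901 ± 1416 and 14308 ± 627, with a log2 fold change of 0.04 ± 0.06 (edgeR adjusted p = 0.694), which turned to -0.01 (adjusted p = 0.911) without CON 4. The stress-inducible relatives Hspa1a and Hspa1b were looked for, but no measured gene was matched to these symbols, so nothing can be said of them.

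Both cytosolic HSP90 genes, which encode the alpha and beta isoforms, overlapped between the groups. Hsp90aa1 (ENSMUSG00000021270, chr12:110656842-110669166, minus strand), the isoform that heat induces more strongly, ranged from 13709 over a median of 14421 to 16285 in CON and from 13263 over 15703 to 16013 in PEA. Its means were 14761 ± 1068 and 15346 ± 1045, a log2 fold change of 0.06 ± 0.06 (edgeR adjusted p = 0.549, interval -4.18% to 13.1%). In PEA, 5 libraries were close together and PEA 2 was low. Hsp90ab1 (ENSMUSG00000023944, chr17:45878552-45891949, minus strand), the constitutive isoform, ranged from 73795 over 83429 to 86958 in CON and from 77405 over 79893 to 82838 in PEA. Its means were 81812 ± 4736 and 80091 ± 1896, a log2 fold change of -0.03 ± 0.05 (edgeR adjusted p = 0.733, interval -8.38% to 4.90%), which lay between -0.06 (without CON 4) and -0.01 (without CON 6) with 1 library left out. This 1 gene took 0.382% to 0.448% of all counts in a library, where the 10 genes together took 0.652% to 0.748%. The ratio of Hsp90aa1 to Hsp90ab1 counts was 0.181 ± 0.0112 in CON and 0.192 ± 0.0112 in PEA (adjusted exact permutation p = 0.209), and that of Hspa8 to Hsp90ab1 was 0.170 ± 0.0142 and 0.179 ± 0.0054 (adjusted exact permutation p = 0.241). The log2 difference of the latter went from 0.08 to 0.05 without CON 4.

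The J-domain genes had fitted differences of opposite sign, and neither was called. Dnaja1 (ENSMUSG00000028410, chr4:40722056-40737149, plus strand), a class A HSP40, ranged from 2220 over a median of 2559 to 3130 in CON and from 2131 over 2409 to 2612 in PEA. Its means were 2633 ± 305 and 2419 ± 171, with a log2 fold change of -0.12 ± 0.07 (edgeR adjusted p = 0.280). Dnajb1 (ENSMUSG00000005483, chr8:84334811-84339820, plus strand), the class B HSP40 that is induced by heat, ranged from 1858 over 1957 to 2280 in CON and from 1997 over 2072 to 2101 in PEA. Its means were 2022 ± 177 and 2064 ± 35.5, with a log2 fold change of 0.03 ± 0.05 (edgeR adjusted p = 0.738). It was 0.07 without CON 3 and 0.01 without CON 2, and the PEA values of Dnajb1 all fell inside the CON range. The ratio of Dnajb1 to Dnaja1 counts was 0.775 ± 0.0939 in CON and 0.856 ± 0.0523 in PEA (adjusted exact permutation p = 0.184), with the lowest CON ratio, 0.600, in CON 4. Without CON 4 the log2 difference of this ratio went from 0.15 to 0.08 and the log2 fold change of Dnaja1 from -0.12 to -0.07, and neither passed the threshold in either case.

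Hspd1 (ENSMUSG00000025980, chr1:55116989-55171038, minus strand) and Hspe1 (ENSMUSG00000073676, chr1:55127260-55130476, plus strand) encode HSP60 and HSP10, the barrel and lid of the mitochondrial chaperonin, and have the stretch with 4 units printed above between a start of each. Hspd1 ranged from 5324 over a median of 6151 to 7643 in CON and from 5396 over 6056 to 6426 in PEA. Its means were 6296 ± 755 and 5975 ± 457, with a log2 fold change of -0.07 ± 0.07 (edgeR adjusted p = 0.549), which was -0.01 without CON 3 and -0.12 without CON 2. Hspe1 ranged from 2183 over 2245 to 2958 in CON and from 2087 over 2330 to 2550 in PEA. Its means were 2381 ± 298 and 2321 ± 194, with a log2 fold change of -0.03 ± 0.07 (edgeR adjusted p = 0.800), which turned to 0.04 (adjusted p = 0.740) without CON 3. CON 3 was the highest of the 12 libraries for both genes. Within a library the ratio of Hspd1 to Hspe1 counts was 2.65 ± 0.179 in CON and 2.58 ± 0.0712 in PEA, a log2 difference of -0.04 (adjusted exact permutation p = 0.409). With 1 library left out this difference lay between -0.07 and -0.02. The former was without CON 2, which had the lowest ratio (adjusted exact permutation p = 0.0758).

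Hspb1 (ENSMUSG00000004951, chr5:135916760-135918417, plus strand) encodes HSP25, a small heat shock protein abundant in muscle. It ranged from 3043 over a median of 3334 to 3809 in CON and from 3346 over 3539 to 3997 in PEA. The means were 3407 ± 322 and 3620 ± 275, with a log2 fold change of 0.09 ± 0.06 (edgeR adjusted p = 0.390, interval -3.05% to 17.0%), which lay between 0.06 (without CON 1) and 0.13 (without CON 2) with 1 library left out.

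**Figure D2:**
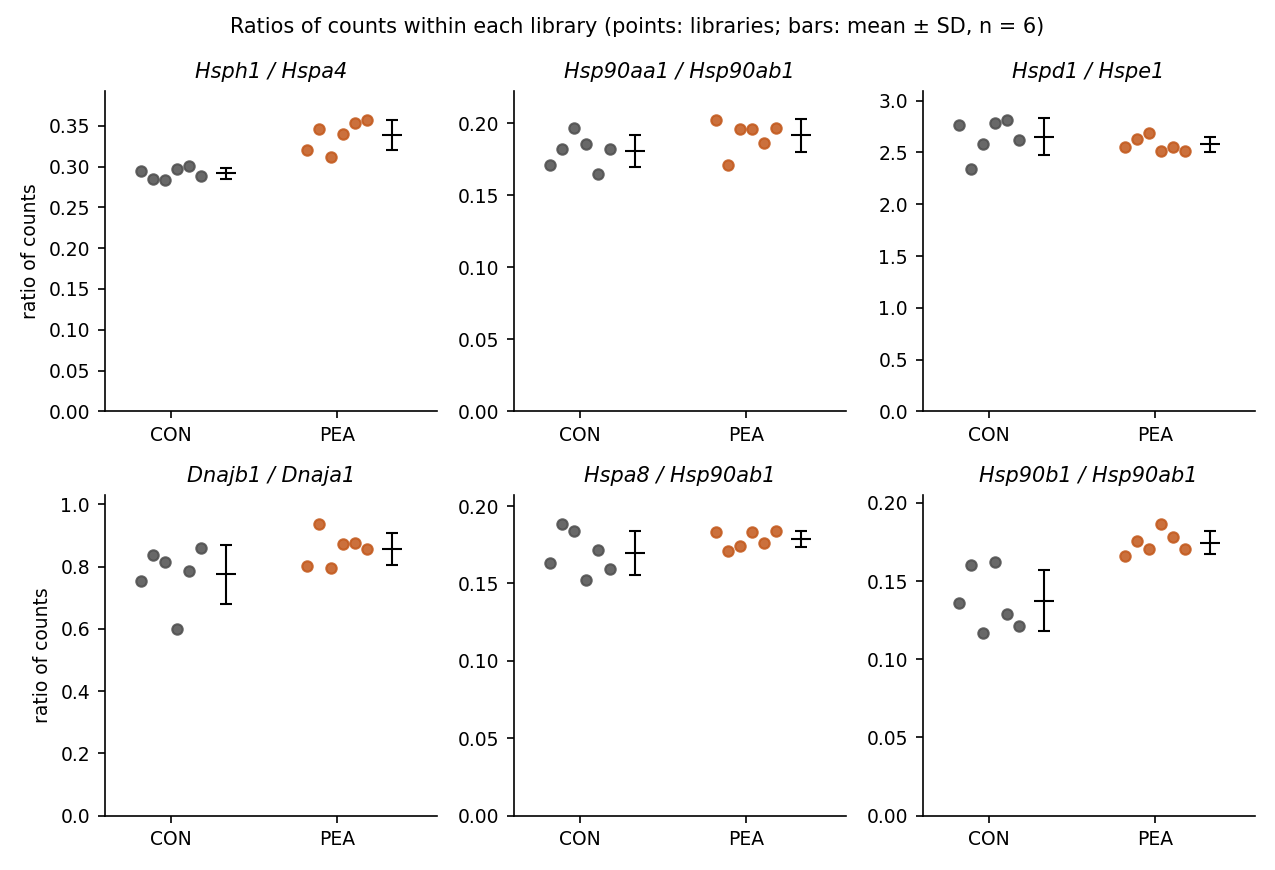
Ratios of counts of chaperone genes within each library (linear axes from 0), with points for the 6 CON and 6 PEA libraries and bars for mean ± SD. The groups do not overlap for Hsph1 to Hspa4 (0.292 against 0.338) and for the ER gene Hsp90b1 to the cytosolic Hsp90ab1 (0.137 against 0.174), a ratio chosen after the data were seen, and they overlap in the other panels.

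How reads divide between these genes and their processed copies bears on several levels. Of the 50-base windows of the canonical transcript, an exact copy elsewhere in GRCm39 was found for 0% in Hsph1 and Hspa4, 0.488% in Dnajb1, 7.76% in Hsp90ab1, 26.0% in Dnaja1, 46.5% in Hspe1, 58.5% in Hspd1, 67.9% in Hsp90aa1, 71.0% in Hspb1 and 75.7% in Hspa8. Measured pseudogenes sharing at least 100 such windows were found for 4 genes, and the member itself held a median of 39.0% of the summed normalized counts for Dnaja1 (3 copies), 55.9% for Hspb1 (1 copy), 60.3% for Hsp90aa1 (2 copies) and 62.5% for Hspd1 (1 copy). With the copies added, a fit chosen after the data were seen, log2 fold changes were -0.03 for Dnaja1, 0.03 for Hspb1, 0.06 for Hsp90aa1 and -0.02 for Hspd1 (edgeR adjusted p from 0.520 to 0.909). The fitted sizes for Dnaja1, Hspb1 and Hspd1 were thus less than those of the genes alone by more than 1.5 times, and none of the 4 was called in either fit. The annotated span of Hspd1 contains Hspe1 and a measured processed pseudogene on the other strand, and it overlaps Mob4, also on the other strand. Hsp90ab1 overlaps Slc35b2 and Dnaja1 overlaps Smu1, and whether the counting used strand is not given in the sources used here.

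The genes that work with these chaperones were followed in lists fixed by function. Together all lists but that of the ER chaperones (given below) held 89 tested genes, grouped by function and not by place in the cell. Of these, 3 were called higher and 6 lower, beside 6.31% higher and 4.74% lower over all genes, and their median log2 fold change was -0.04. Among 6 tested relatives of HSP70 and HSP110, Hspa12a, an atypical HSP70, rose from 562 ± 28.8 to 673 ± 30.4 normalized counts without overlap (log2 fold change 0.26 ± 0.05, edgeR adjusted p = 0.00743). Of 14 cytosolic J-domain genes, Dnajc21, a cofactor of ribosome maturation, fell from 1764 ± 91.2 to 1555 ± 48.3 without overlap (-0.18 ± 0.04, edgeR adjusted p = 0.0170). No HSP90 co-chaperone among 16 was called by edgeR, 2 were below 0.05 unadjusted and DESeq2 called 0. The one with the smallest p was Sugt1, at 1974 ± 91.8 in CON and 1817 ± 99.3 in PEA (edgeR adjusted p = 0.111), and without CON 3 Unc45b, a myosin chaperone, was called (-0.36, edgeR adjusted p = 0.0152).

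Regulators of HSP70 included 1 call among 10, Sgta, a co-chaperone for membrane proteins in the cytosol. It fell from 3955 ± 126 to 3581 ± 158 (-0.14 ± 0.04, edgeR adjusted p = 0.0386), a call that was lost without any one of CON 1, CON 5, CON 6, PEA 3, PEA 4, PEA 5 or PEA 6 (adjusted p up to 0.0941). Among 6 other small heat shock proteins, Hspb7, which is expressed in heart and skeletal muscle, fell from 659 ± 152 to 434 ± 80.8 (-0.60 ± 0.14, edgeR adjusted p = 0.0134), with ranges of 473 to 877 and 361 to 581 that overlapped. Cryab, which encodes alpha-B crystallin, was 11645 ± 998 with CON and 11392 ± 658 with PEA (log2 fold change -0.03 ± 0.06, edgeR adjusted p = 0.783) and is named here outside the rule for named genes. In mitochondria, Lonp1, an ATP-dependent protease of the matrix, was the single call among 15 and rose from 3344 ± 296 to 4169 ± 401 (0.32 ± 0.07, edgeR adjusted p = 0.00822). Hspa9, the HSP70 of the matrix, and Trap1, its HSP90, had log2 fold changes of -0.02 ± 0.04 and 0.07 ± 0.04 (edgeR adjusted p = 0.750 and 0.325).

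TRiC, the cytosolic chaperonin that folds actin and tubulin, and prefoldin, which hands them over, had fitted differences of 1 sign. All 14 genes had fitted log2 fold changes below 0, from -0.27 to -0.04 with a median of -0.14, where 6404 of all 13142 genes tested were below 0, and all 14 stayed below 0 in each alternative fit and scaling. At an unadjusted p below 0.05 there were 11 of 14 (27.4% of all genes), and 2 were called by edgeR (11% of all genes) and 5 by DESeq2 (14.5% of all genes), so that the count of edgeR calls was near that over all genes. The calls were Pfdn6, which fell from 2005 ± 174 to 1663 ± 112 (-0.27 ± 0.06, edgeR adjusted p = 0.0107), and Pfdn5, from 3193 ± 143 to 2799 ± 192 (-0.19 ± 0.05, edgeR adjusted p = 0.0235). The call of Pfdn5 was lost without CON 6, PEA 2, PEA 5 or PEA 6 (adjusted p up to 0.0627). Without CON 2 there were 6 calls in this list and without CON 4 there were 5. The 14 genes encode subunits of shared complexes and were read in the same libraries, and are not independent measurements.

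Of 13 heat shock factors and other targets tested, 1 was called higher and 1 lower. Hmox1, which encodes heme oxygenase 1, rose from 2062 ± 174 to 2619 ± 302 (0.35 ± 0.07, edgeR adjusted p = 0.00795). Hsbp1, which encodes a binding protein of heat shock factor 1, fell from 2671 ± 79.5 to 2402 ± 131 (-0.15 ± 0.04, edgeR adjusted p = 0.0361), and this call was kept with only 4 of the 12 libraries left out in turn, being lost without CON 3, CON 4, CON 5, CON 6, PEA 2, PEA 3, PEA 5 or PEA 6. Hsf1 itself, named outside the rule, was 1811 ± 78.1 with CON and 1816 ± 103 with PEA (log2 fold change 0.00 ± 0.05, edgeR adjusted p = 0.961).

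**Figure D3:**
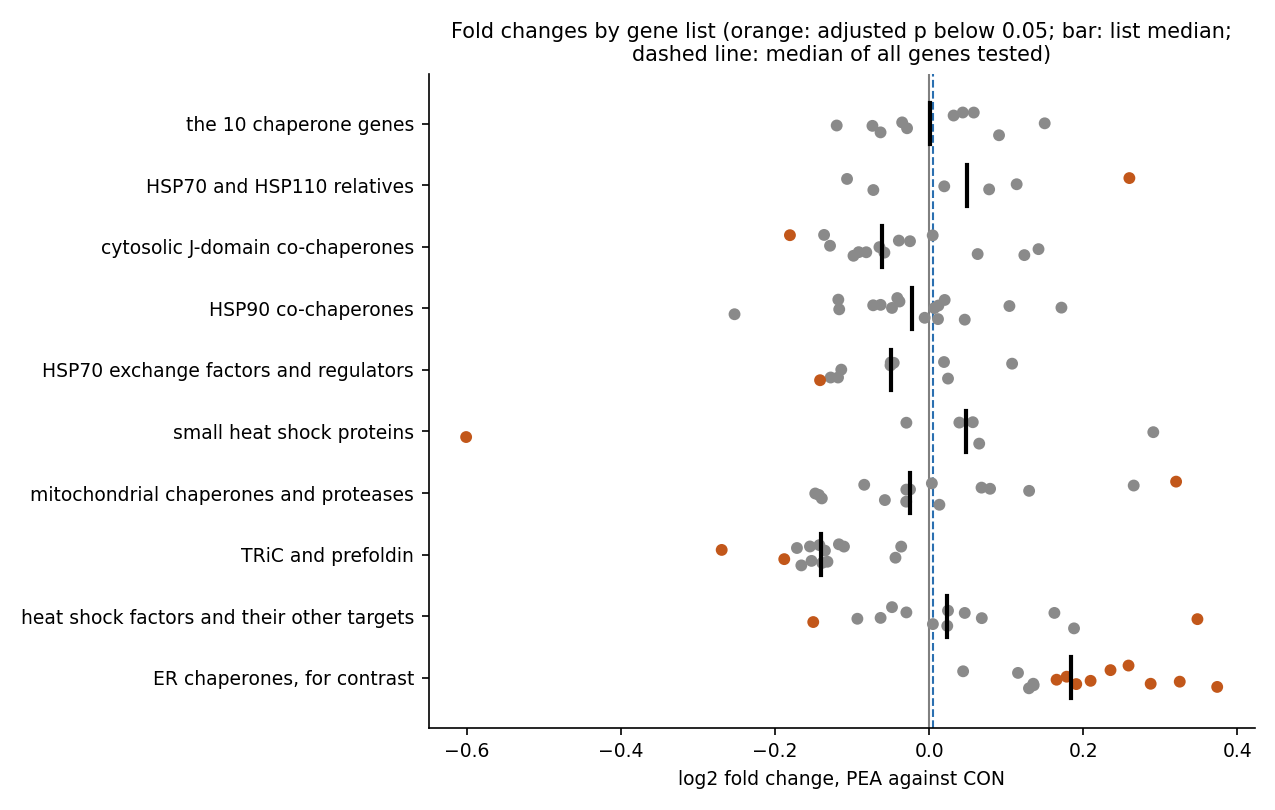
Log2 fold changes (PEA over CON, edgeR) of the tested genes of each list, with 1 point per gene, orange for an adjusted p below 0.05, a black bar for the list median, a grey line at 0 and a dashed line at the median of all genes tested (0.01). The 10 chaperone genes lie around 0, the 14 TRiC and prefoldin genes lie below 0 (median -0.14) and the 14 ER chaperone genes above 0 (median 0.18).

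Chaperone genes of the endoplasmic reticulum (ER) are given for contrast. Of 14 tested, 9 were called higher (6.31% of all genes) and the other 5 had fitted values above 0 without a call, with a median log2 fold change of 0.18. The count of calls was 5 without PEA 5 and 6 without CON 6 or PEA 4. The 3 with the smallest p were Hsp90b1 (GRP94), at 11175 ± 1052 in CON and 13980 ± 799 in PEA (0.33 ± 0.06, edgeR adjusted p = 0.00392), and the disulfide isomerases Pdia6 (0.29 ± 0.06, edgeR adjusted p = 0.00494) and Pdia3 (0.26 ± 0.05, edgeR adjusted p = 0.00572). In 4 ratios chosen after the calls of the ER genes were seen, ER and mitochondrial relatives were divided by cytosolic counterparts within each library. They describe these pairs of genes and are not independent of those calls. Hsp90b1 counts were 0.117 to 0.162 of those of Hsp90ab1 in CON and 0.166 to 0.186 in PEA, without overlap. The geometric mean of the ratio was 27.9% higher (log2 difference 0.36, adjusted exact permutation p = 0.00866), and the adjusted p rose to 0.0519 without PEA 4. The ratio of Hspa5 (BiP) to Hspa8 was 1.12 ± 0.189 and 1.26 ± 0.0778, and the groups overlapped (adjusted exact permutation p = 0.156). Without CON 4, which was low for Hspa8, its log2 difference was 0.27 (adjusted exact permutation p = 0.00433). The mitochondrial ratios, Hspa9 to Hspa8 and Trap1 to Hsp90ab1, had adjusted exact permutation p-values of 0.394 and 0.156, and the latter was 0.0260 without CON 4. With 1 library left out, the log2 difference lay between -0.11 and -0.01 for Hspa9 to Hspa8 (-0.07 with all). For Trap1 to Hsp90ab1 it lay between 0.06 and 0.13 (0.09 with all).

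**Figure D4:**
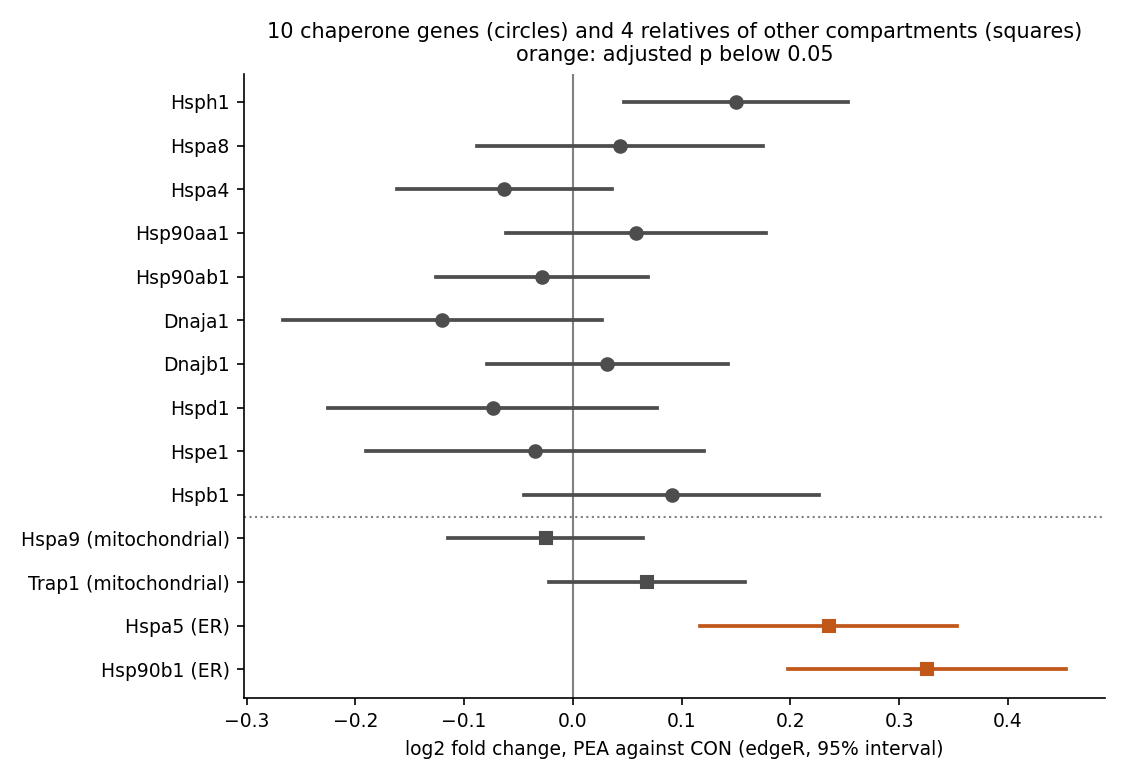
Log2 fold changes (PEA over CON) with 95% intervals from edgeR for the 10 chaperone genes (circles) and 4 mitochondrial and ER relatives (squares), orange for an adjusted p below 0.05. The intervals of 9 of the 10 genes span 0, that of Hsph1 lies above 0 (0.05 to 0.25) without passing the adjusted threshold, and Hspa5 and Hsp90b1 are the 2 called genes shown.

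Compared per length, as normalized counts per kb of annotated exon over all 12 libraries, the 10 genes spanned from a median of 14968 for Hsp90ab1 to 227.7 for Hsph1. Hsp90ab1 (13663 to 16100) stood alone at the top. Hsp90aa1 followed at 3369 (2881 to 3538) and Hspb1 at 3282 (2914 to 3829), and these ranges overlapped. The next 4 were Hspa8 at 1665, Hspd1 at 1649, Hspe1 at 1290 and Hspa4 at 1191, each overlapping its neighbour in the order. Dnajb1 at 548 overlapped neither neighbour, and Dnaja1 at 277.6 and Hsph1 at 227.7 overlapped each other. Dividing by the longest transcript instead put the median of Hspe1 (2383) above that of Hspd1 (1852) and left the order of the other medians as it was, and the ranges of Hspb1 and Hspa8 and of Dnajb1 and Dnaja1 then overlapped. Levels of genes that share sequence with copies depend on how the counting divided those reads.

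Between libraries of the same treatment, many of these genes varied together. Deviations of log2 CPM (depth-scaled counts) from the group mean had a median Pearson r of 0.34 over the 45 pairs of genes in 12 libraries, with 34 pairs above 0. These correlations share libraries and depth, and are given as a description. Pairs of other genes were not examined, so the shared variation is not shown to be particular to these 10. The highest was 0.86, for Hspd1 and Hspe1, whose annotated spans overlap. The lowest was -0.90, for Hspa4 and Hspb1, and Hspb1 was negatively correlated with each of the other 9 genes. CON 3 had the highest mean deviation, with 9 of 10 genes above its group mean, and PEA 2 the lowest, with 1 of 10 above.

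**Figure D5:**
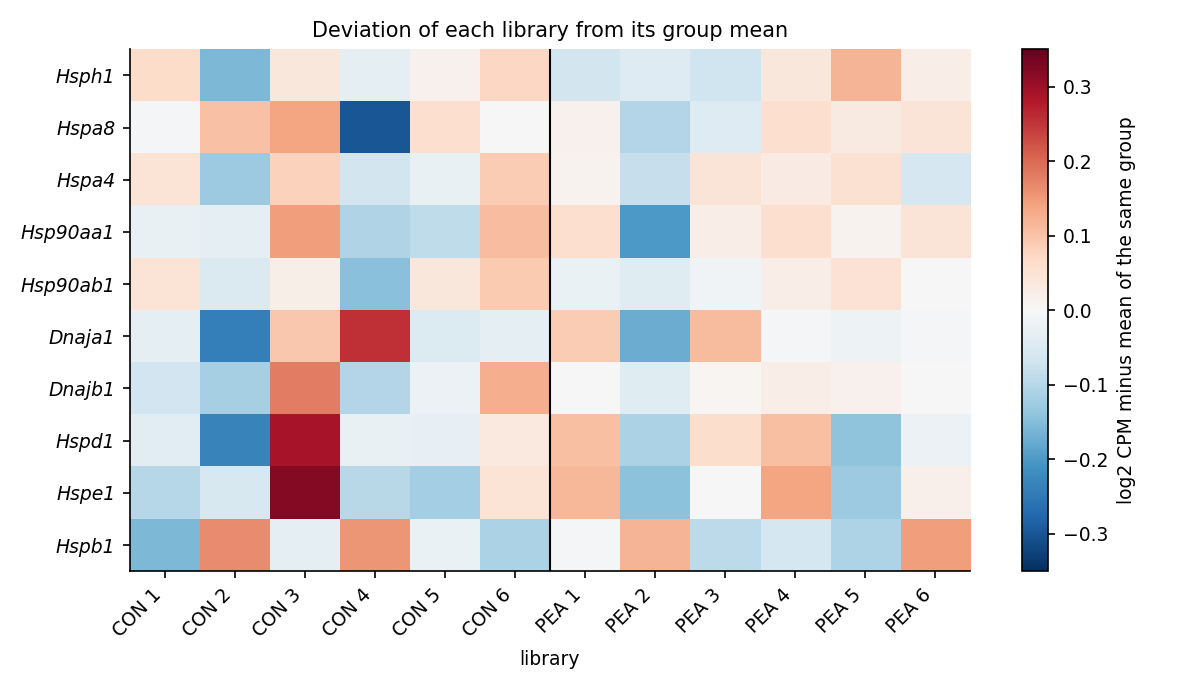
Deviation of log2 CPM from the mean of the same treatment for the 10 chaperone genes (rows) in the 12 libraries (columns), red above and blue below the mean. CON 3 is above its group mean for 9 genes and furthest for Hspe1 and Hspd1, CON 4 is lowest for Hspa8, and the row of Hspb1 runs against most others.

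The genes whose deviations followed the mean of the 10 most closely were picked by the highest r among 10837 genes compared (median r of 0.01), over 12 libraries. They included Dek (r = 0.97), which encodes a chromatin protein, Npm1 (0.95), which encodes nucleophosmin, and the TRiC subunit gene Cct8 (0.94). Others were Tcea1 (0.93), Glrx (0.93), Txnl1 (0.93), Psmc2 (0.92), Nop58 (0.92) and Ywhab (0.92). Between CON and PEA their edgeR adjusted p-values lay from 0.0647 for Dek to 0.301 for Txnl1.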

How the data were processed

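RNA-seq libraries of C2C12 myotubes (6 CON, 6 PEA) were analysed from 2 deposited tables. In Partek Flow, the authors trimmed reads by quality, aligned them to mm39 with STAR and assigned them to the Ensembl annotation. One table, as deposited, gives the estimated count per gene without normalization, filtered by the authors by a rule not given in the sources used here. The other, also deposited, gives a signal, which is those counts scaled per library by the authors with DESeq2's median-ratio method. The labels name 2 runs of PEA 2 for 1 set of values, which was counted as 1 library. The 10 genes and all lists were chosen with earlier results of these data known.

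Counts were rounded and tested with edgeR 4.0.16 (quasi-likelihood test, TMM, default filter, Benjamini-Hochberg adjusted p below 0.05) in R 4.3.3. Symbols, spans and exon lengths came from GENCODE for GRCm39, and 16343 genes had a symbol. Ratios of counts within a library were compared on the log2 scale with two-sided exact permutation tests over 924 assignments. Log2 CPM used a prior count of 2. Python 3.11.15 was used for tables and figures. The fits across all genes were checked on simulated data.

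Besides the 10 genes, the text names from each list the called genes with the smallest p (up to 3 in each direction, or the 1 gene with the smallest p where none was called), and the 10 genes most like the mean deviation of the 10 (mean normalized count of at least 100), of which 1 is not reported here. Pseudogenes are given only as counts and summed levels. Genes named outside this rule are marked, or stand beside a result that turns on them.

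Alternatives were DESeq2 1.42.0, limma-voom and limma 3.58.1 on the deposited signal (pseudocount 1 or 10), size factors by median of ratios, no filter, a minimum of 10 counts per library, counts without rounding, thinning of all libraries to the smallest, a replicate block, a threshold of 0.01 and leaving out each library. The biological coefficient of variation was 0.106. Errors and intervals cover the spread between libraries, counting error included.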

Additional observations from a re-analysis of the deposited data

Results flagged for a closer look

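Of 38 groups of 6 libraries examined (normalized counts of the 10 genes and the 9 ratios, in CON and in PEA), 4 had a library that stood apart by Dixon's 95% criterion, the gap to its nearest neighbour as a share of the range. Chance alone marks about 5% of such groups. Hspa8 was lowest in CON 4, at 11243 normalized counts, and the ratio of Hspa9 to Hspa8 counts was highest in the same library, at 1.85. The 2 flags are not separate, as Hspa8 is the denominator of that ratio. Without CON 4 the log2 fold change of Hspa8 was -0.01, against 0.04 with it. Reads also divided between genes and pseudogene copies differently in CON 4. The gene's own share there was the highest of all libraries for Dnaja1 (47.5%) and Hspd1 (67.7%), and the lowest for Hspb1 (52.3%). Whether this bears on the Hspa8 or Dnaja1 values of CON 4 was not tested. Hspe1 was highest in CON 3, at 2958 normalized counts, and its log2 fold change was 0.04 without that library, against -0.03. Hsp90aa1 was lowest in PEA 2, at 13263 normalized counts, and its log2 fold change was 0.10 without that library, against 0.06. None of these genes was called with or without the library named.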

How the results depend on the processing

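Counts of called genes among the 10 were 0 with each library left out and 1 (Hsph1) with DESeq2, with at least 10 counts in every library and with libraries thinned to the smallest total. With each library left out, log2 fold changes changed sign only for Hspa8 (-0.01046 to 0.07166, below 0 without CON 4) and Hspe1 (-0.06333 to 0.03694, above 0 without CON 3), and none of the 10 changed sign under the other alternatives. The ratio of Hsph1 to Hspa4 stayed called in all 12 fits with a library left out, and its adjusted exact p was 0.0649 for the difference of medians (0.2344).

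Replicate numbers did not pair the libraries (correlations of same-numbered deviations from -0.083 to 0.065, 0 of 12 libraries closest to their own number). With the replicate block the ratio of Hsph1 to Hspa4 kept its difference of 0.2125 with an adjusted exact p of 0.156. Adjustment over the 5 ratios turns the smallest p that 6 pairs allow into this value when 1 ratio reaches it, as here, so that the loss of the call says nothing about the ratio. With the block Sgta lost its call (0 HSP70 regulators called), and the call of no other gene among the 10 and the lists changed.

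DESeq2 called 2 J-domain genes, 2 HSP70 regulators, 2 mitochondrial genes and 5 of TRiC and prefoldin. No filter gave 0 HSP70 regulators. Thinning gave 0 HSP70 regulators, 2 mitochondrial genes and 1 heat shock factor or target. At an adjusted p below 0.01, 405 of all genes were called (1452 at 0.05), with 0 J-domain genes, HSP70 regulators, small heat shock proteins, and TRiC and prefoldin genes, 1 heat shock factor or target and 3 ER chaperones. With each library left out the calls were 1 to 3 J-domain genes (3 without CON 2, 2 without CON 4), 0 to 1 HSP90 co-chaperones, 0 to 1 HSP70 regulators, 1 to 2 small heat shock proteins (2 without CON 2), 1 to 2 mitochondrial genes (2 without CON 2 or PEA 3), 1 to 6 of TRiC and prefoldin, 1 to 3 heat shock factors and targets, 5 to 10 ER chaperones (5 without PEA 5) and 778 to 2203 of all genes (2203 without CON 2). The cause of these changes was not tested.

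Divided by the longest transcript, mean levels per kb were 406.1 for Hsph1, 3114 for Hspa8, 1657 for Hspa4, 3848 for Hsp90aa1, 18920 for Hsp90ab1, 438.2 for Dnaja1, 577.3 for Dnajb1, 1848 for Hspd1 and 2439 for Hspe1. The pseudogene copies and the 4 ratios across compartments were added after the data were seen.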
